A study of Mus musculus with 9 samples.

Results

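Peg3 and 9 other autosomal imprinted genes were followed in D2A1-d, a mouse breast carcinoma cell line, with and without knockdown of Med1. The 10 genes, Peg3, Usp29, Igf2r, Plagl1, Mest, Grb10, Cdkn1c, H19, Igf2 and Impact, were chosen by symbol out of the 55335 genes counted, with earlier results of these libraries known. The fold changes that informed the choice come from the same contrasts that are described here, so all values of these genes are given as a description, with an interval and no p-value. All 10 had a line in the count files.

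All cells were D2A1-d kept in medium with fetal bovine serum and transduced with a hairpin. The controls carried a non-targeting hairpin (NTC) and are given the genotype WT. The others carried 1 of 2 short hairpin RNAs against Med1, shMed1 #2 or shMed1 #4, and are given the genotype Med1 Knockdown. The product of Med1 is a part of Mediator, through which transcription factors act on RNA polymerase II. Each of the 3 groups held 3 libraries of total RNA, called biological replicates. Which promoter drives the hairpins, and whether the cells are clones or pools, is not given in the sources. Nothing says whether the replicates were separate cultures or transductions, so the p-values below reflect the spread among these samples alone, which may be technical.

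An imprinted gene is transcribed mainly from the chromosome inherited from 1 parent. A control region near it carries DNA methylation laid down in the germline of only 1 parent, which can be either one. Peg3, Usp29, Plagl1, Mest, Igf2 and Impact are known as genes expressed from the paternal chromosome in mouse, and Igf2r, Cdkn1c and H19 from the maternal one, while Grb10 depends on the tissue. Many of these genes act on growth before birth and fall to low levels in most adult tissues. Counts per gene do not separate the parental copies, so nothing here measures imprinting itself.

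Library totals were 8123918 to 8879982 counts, and 13611 genes had enough counts to be tested. Levels are given in CPM, the counts of a gene relative to the library size scaled by TMM, and 3 counts in a library correspond to 0.345 to 0.364 CPM. Summed marker levels, and limits given for several libraries together, are relative to the raw library totals instead. Med1 averaged 84.3 CPM in NTC. With shMed1 #2 it averaged 24.0 CPM, a log2 fold change of -1.81 (SE 0.0746, edgeR adjusted p = 5.67e-36). With shMed1 #4 it averaged 25.7 CPM, a log2 fold change of -1.71 (SE 0.0739, edgeR adjusted p = 6.39e-34). No library stood apart, since each lay nearer to its own group (0.293 or less, root mean square log2 distance) than to any other (0.390 or more). Of 10 carcinoma epithelium markers, Epcam, Cldn3, Cldn4 and Krt5 were at 0 in all 9 libraries and Cdh1 had at most 2 counts. Krt18 and Krt8 made up most of that list's summed level. It ranged from 57.7 to 59.3 CPM in NTC, 19.6 to 22.3 CPM with shMed1 #2 and 41.4 to 51.8 CPM with shMed1 #4. The 9 mesenchyme markers summed to 4290 to 4470, 4660 to 4850 and 4930 to 5140 CPM in the same order, nearly all of it Vim and Fn1. Of the less abundant ones, Prrx1 was 5.38-fold, Col1a1 3.06-fold, Col1a2 2.73-fold and Pdgfrb 2.56-fold lower with shMed1 #2, and Pdgfrb was 1.63-fold lower with shMed1 #4, while Vim rose with both. Cdh2 was higher with shMed1 #2 and lower with shMed1 #4, by 0.63 and -0.96 on the log2 scale (adjusted p = 0.0216 and 0.00883). Fn1 was lower with shMed1 #2 and higher with shMed1 #4, by -0.20 and 0.11 (edgeR adjusted p = 4.56e-06 and 0.0161). Among leukocyte markers, Cd3e, Adgre1 and Itgam were at 0 throughout, and the summed level was at most 20 CPM. Csf1r, with means of 14.5, 12.3 and 12.2 CPM, and Cd68, with 2.45, 2.42 and 2.59 CPM, gave most of it in NTC, shMed1 #2 and shMed1 #4 and were detected in every library. Endothelial markers summed to at most 1.32 CPM and adipocyte markers to at most 0.246 CPM. Muscle markers, nearly all Des, ranged from 2.12 to 2.22, 0.567 to 0.912 and 1.2 to 1.51 CPM.

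Of the 10 genes, 5 were detected with more than 3 counts in at least 1 library: Peg3, Usp29, Igf2r, Mest and Impact. Plagl1 and H19 had 1 count each over all 9 libraries, and Grb10, Cdkn1c and Igf2 had 0. Only Peg3, Igf2r, Mest and Impact passed the filter on low counts and entered the fit. Peg3 passed it with few counts in the shMed1 #2 libraries.

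**Figure D1:**
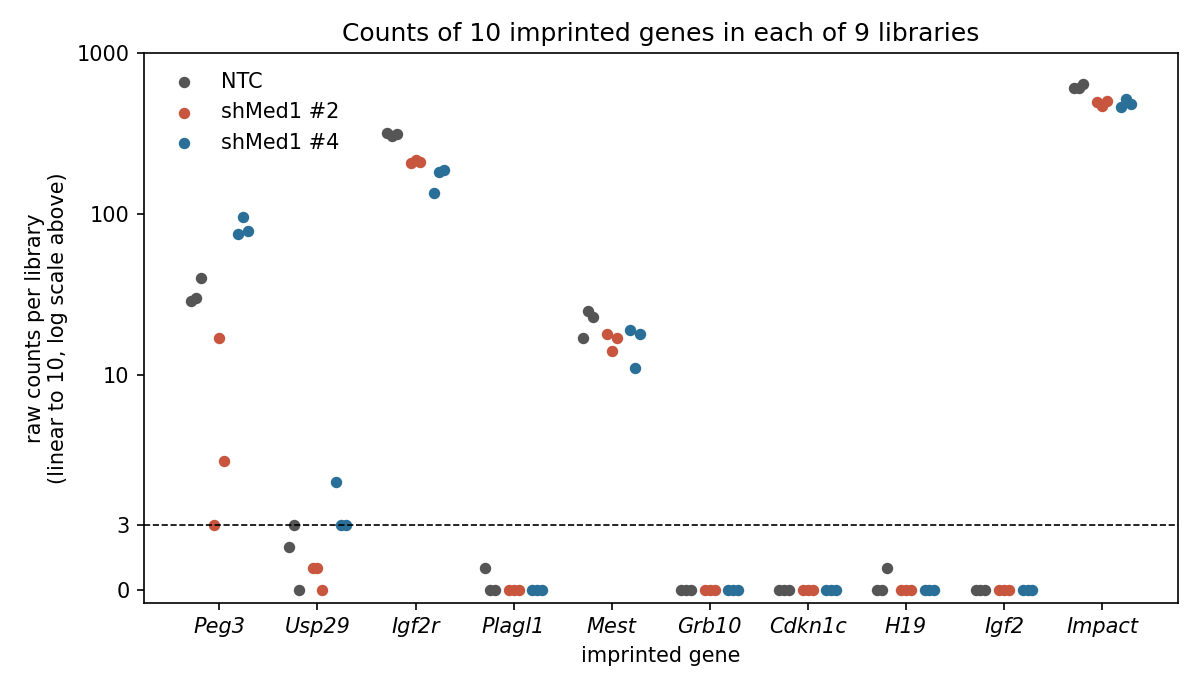
Raw counts (vertical axis, linear up to 10 and logarithmic above) of the 10 imprinted genes (horizontal axis) in the 9 libraries, 1 point a library and 1 colour a group. The dashed line marks 3 counts. Peg3 lies in 3 separate bands of 3 to 17, 29 to 40 and 75 to 96 counts, and Plagl1, Grb10, Cdkn1c, H19 and Igf2 lie at 0 or 1.

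Peg3 was the gene of the 10 that differed most between groups, and it lay on opposite sides of the control with the 2 hairpins. Peg3 (ENSMUSG00000002265.17) encodes a large zinc finger protein that binds DNA. The gene lies on chromosome 7 from 6703892 to 6730431 (GRCm38, minus strand), codes for protein, and shares none of its 13324 exonic bases with another annotated gene. Peg3 had 29, 30 and 40 counts in the NTC libraries, 3, 17 and 6 with shMed1 #2 and 75, 96 and 78 with shMed1 #4. As CPM these were 3.52, 3.62 and 4.63 in NTC (mean 3.92, SD 0.618, n = 3). They were 0.345, 1.97 and 0.691 CPM with shMed1 #2 (mean 1.00, SD 0.858, n = 3) and 8.73, 11.6 and 9.04 CPM with shMed1 #4 (mean 9.77, SD 1.55, n = 3). All 3 libraries of shMed1 #2 were below all NTC libraries, all 3 of shMed1 #4 were above them, and no groups overlapped.

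For Peg3 the log2 fold change against NTC was -1.96 with shMed1 #2 (SE 0.324, 95% interval -2.60 to -1.31), a level 3.88-fold lower. With shMed1 #4 it was 1.31 (SE 0.203, interval 0.91 to 1.71), a level 2.48-fold higher. Both comparisons use the same NTC libraries. From shMed1 #2 to shMed1 #4 the difference was 3.27 on the log2 scale (SE 0.268, interval 2.73 to 3.80), or 9.63-fold, and only 4 of the 13611 tested genes had a higher value in that comparison. In the comparison with shMed1 #4 against NTC Peg3 ranked 21 from the top, and with shMed1 #2 against NTC it ranked 143 from the bottom. Replicate 2 of shMed1 #2, with 17 counts, sets much of the spread: without it the log2 fold change was -2.89 against NTC and 4.20 between the hairpins. The Med1 level itself differed by 0.10 on the log2 scale between the hairpins (SE 0.0899, adjusted p = 0.461). RNA from a whole culture was measured, so fewer cells that express a gene and less RNA per cell cannot be told apart. The epithelial marker sum was also lowest with shMed1 #2, but with shMed1 #4 it was below NTC where Peg3 was above it. Of the mesenchyme markers, Cdh2 lay on the opposite sides to Peg3 (0.63 with shMed1 #2 and -0.96 with shMed1 #4). Fn1 lay on the same sides as Peg3 (-0.20 and 0.11). Prrx1, Col1a1, Col1a2 and Pdgfrb were below NTC with shMed1 #2, as Peg3 was. Between the hairpins they were higher with shMed1 #4 (2.19, 1.37, 0.83 and 0.65), also as Peg3 was. With shMed1 #4 against NTC they did not rise (-0.24, -0.24, -0.62 and -0.71). Vim was above NTC with both hairpins, and Zeb1 and Twist1 were not called in any comparison. The part of the cell markers in these values was not tested.

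**Figure D2:**
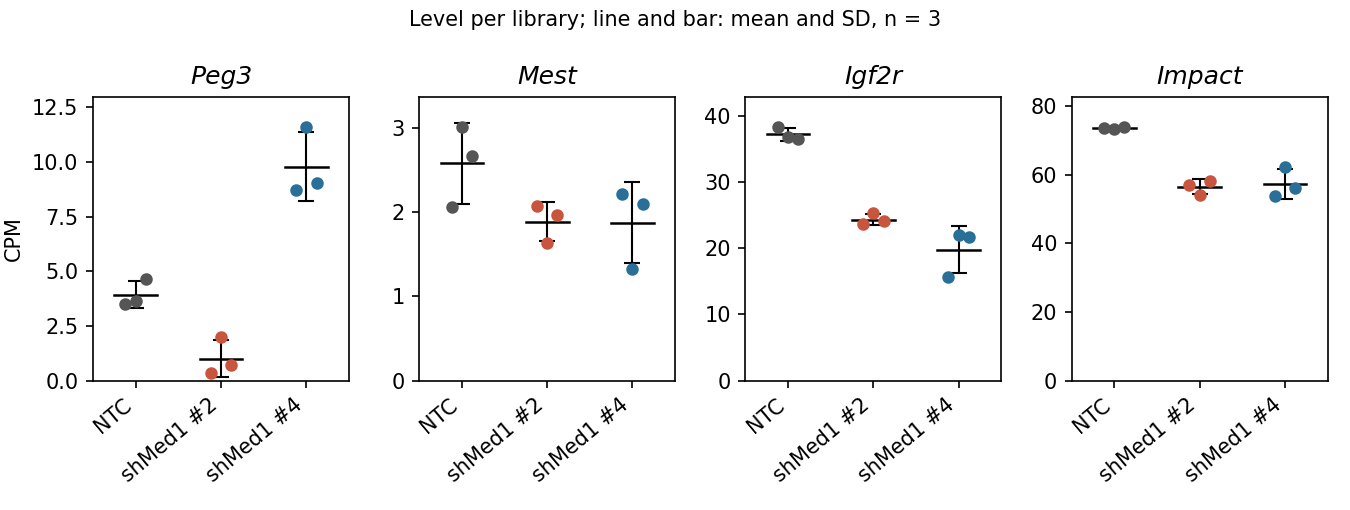
Level in CPM (vertical axis, starting at 0, on its own scale for each gene) of Peg3, Mest, Igf2r and Impact in the 3 libraries of each group (horizontal axis). Points are libraries, and the line and bar are the mean and SD (n = 3). Peg3 lies below NTC with shMed1 #2 and above it with shMed1 #4, while Igf2r and Impact lie below NTC with both.

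Between the starts of Peg3 and Usp29, which lie on opposite strands and point away from each other, are 146 bases. These are the starts in the GENCODE annotation, and those in RefSeq differ. Both genes are known to be transcribed from 1 shared promoter region that lies in the control region of the locus. That stretch is shown because it is the sequence between the starts of the gene with the widest differences and its partner. The second sequence is the 150 bases upstream of the RefSeq start of Igf2r, the gene of the list with the next largest fold changes, for comparison. Both come from the promoter windows of RefSeq (GRCm38), which held 7 of the 10 genes (Cdkn1c, H19 and Impact had no entry). Both are written 5′ to 3′ on the minus strand, with CpG dinucleotides, the sites of DNA methylation, in capitals.
Peg3 to Usp29, chr7:6730432-6730577: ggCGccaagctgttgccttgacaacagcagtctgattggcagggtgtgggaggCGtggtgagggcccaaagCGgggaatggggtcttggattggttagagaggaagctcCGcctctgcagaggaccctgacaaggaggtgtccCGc
Igf2r upstream, chr17:12769707-12769856: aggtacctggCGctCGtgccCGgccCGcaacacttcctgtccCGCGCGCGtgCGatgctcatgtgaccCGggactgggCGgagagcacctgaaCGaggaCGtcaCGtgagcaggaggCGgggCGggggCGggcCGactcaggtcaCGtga
The Peg3 to Usp29 stretch holds 5 CpG dinucleotides and is 61.6% G or C. Of all RefSeq promoter windows cut to that length just upstream of the RefSeq start, 59.0% hold as many or fewer, and their median is 4. The Igf2r stretch holds 19 and is 70.7% G or C, and 93.8% of windows hold as many or fewer. Neither holds TGCCGC, the core of the motif of the imprint protein ZFP57, or GCCAT, the core of the YY1 motif, on either strand. Of 32851 whole promoter windows, 11.6% hold TGCCGC and 40.5% hold GCCAT. The counts do not report methylation, so no state of these CpG dinucleotides was measured.

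Usp29 (ENSMUSG00000051527.11, plus strand of chromosome 7, 6730578 to 6967219) encodes a ubiquitin-specific protease and was near the limit of detection. It had 2, 3 and 0 counts in NTC, 1, 1 and 0 with shMed1 #2, and 5, 3 and 3 with shMed1 #4. The sums were 5 counts in NTC (exact 95% Poisson interval 1.62 to 11.7), 2 with shMed1 #2 (0.242 to 7.22) and 11 with shMed1 #4 (5.49 to 19.7), and these intervals overlap and cover counting error only. The order of the sums is that of Peg3, with shMed1 #2 lowest and shMed1 #4 highest, but 1 library of NTC reached the level of 2 libraries of shMed1 #4. Usp29 did not pass the filter on low counts. Of its exonic bases 14.8% are shared with other genes, nearly all with the antisense gene Zim3, which had 0 counts.

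No other tested gene around Peg3 was called lower with shMed1 #2 and higher with shMed1 #4. The share of all tested genes with both of these calls was not computed, so nothing is read from that absence. Within 1 Mb of Peg3 88 genes are annotated, 19 had more than 3 counts in a library, and 13 besides Peg3 were tested. With shMed1 #2, 0 of these 13 were higher and 6 were lower, and with shMed1 #4, 0 were higher and 2 were lower (edgeR adjusted p under 0.05). Between the hairpins 2, Zfp28 and Zfp773, were higher and 0 lower with shMed1 #4, the direction of Peg3. Among all tested genes 43.7% were called with shMed1 #2, 21.8% higher and 21.9% lower, and 28.2% with shMed1 #4, 14.0% higher and 14.1% lower. For the comparison between the hairpins these shares were 12.9% higher and 13.1% lower, beside 2 and 0 of these 13 genes. The nearest tested gene, Zfp28, lies 307 kb away and encodes a zinc finger protein. Its level was 9.21, 8.19 and 9.84 CPM in NTC, 4.94, 8.01 and 4.61 CPM with shMed1 #2, and 8.49, 10.2 and 9.16 CPM with shMed1 #4. Zfp28 fell with shMed1 #2 (log2 fold change -0.64, SE 0.173, adjusted p = 0.00159) and stood at 0.03 with shMed1 #4 (SE 0.158, adjusted p = 0.913), a difference of 0.67 between the hairpins (SE 0.171, adjusted p = 0.00172). Zfp773, another zinc finger gene 397 kb away, was lower with both, by -1.83 (SE 0.227, adjusted p = 8.87e-11) and -1.09 (SE 0.204, adjusted p = 1.29e-05), with 0.75 between them (SE 0.263, adjusted p = 0.026). Both genes were picked after their values were seen. Of the imprinted genes of the Peg3 locus itself, Zim1 had 1 count in all 9 libraries together and Zfp264 had 0.

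**Figure D3:**
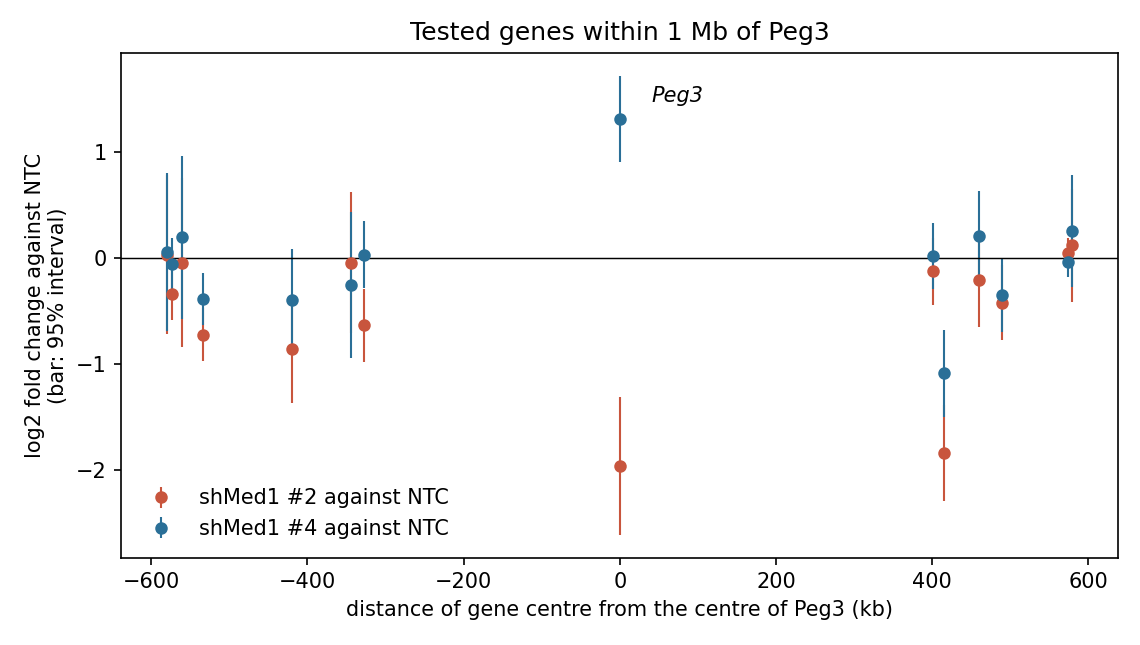
Log2 fold change against NTC (vertical axis, bar: 95% interval) of Peg3 and the 13 other tested genes within 1 Mb, by distance of the gene's centre from that of Peg3 in kb (horizontal axis). Red is shMed1 #2 and blue is shMed1 #4. Peg3 at distance 0 has the highest blue point and the lowest red point.

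Igf2r (ENSMUSG00000023830.14) encodes the receptor that carries IGF2 and proteins tagged with mannose 6-phosphate to the lysosome, and it was lower with both hairpins. The gene lies on the minus strand of chromosome 17, 12682406 to 12769664. Igf2r stood at 38.4, 36.9 and 36.5 CPM in NTC (mean 37.3, SD 1.03, n = 3). It stood at 23.7, 25.3 and 24.1 CPM with shMed1 #2 (mean 24.4, SD 0.849, n = 3) and at 15.7, 22.0 and 21.8 CPM with shMed1 #4 (mean 19.8, SD 3.58, n = 3). Every library of both hairpins was below every NTC library, and the libraries of shMed1 #4 were all below those of shMed1 #2. The epithelial marker sum was also below NTC with both hairpins, and its part in the level of Igf2r was not tested.

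Against NTC the log2 fold change of Igf2r was -0.61 with shMed1 #2 (SE 0.0919, interval -0.80 to -0.43), a level 1.53-fold lower. With shMed1 #4 it was -0.91 (SE 0.0957, interval -1.10 to -0.72), a level 1.88-fold lower. Between the hairpins it was -0.30 (SE 0.102, interval -0.50 to -0.09). That last difference did not pass the threshold in DESeq2 (-0.30), without replicate 2 of shMed1 #2 (-0.27) or without replicate 1 of shMed1 #4 (-0.15). Airn, the antisense RNA that silences the paternal Igf2r copy, had 0 counts in all 9 libraries and shares no exonic base with Igf2r.

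Impact (ENSMUSG00000024423.6, plus strand of chromosome 18, 12955852 to 12992950) encodes an inhibitor of the activation of the stress kinase GCN2, and it had the highest counts of the 10. Its level was 73.5, 73.3 and 73.9 CPM in NTC (mean 73.5, SD 0.308, n = 3). It was 57.1, 54.1 and 58.2 CPM with shMed1 #2 (mean 56.5, SD 2.12, n = 3) and 53.8, 62.2 and 56.1 CPM with shMed1 #4 (mean 57.4, SD 4.37, n = 3). All 6 hairpin libraries were below all NTC libraries, and the 2 hairpins overlapped. The log2 fold change of Impact was -0.38 with shMed1 #2 (SE 0.0639, interval -0.51 to -0.25) and -0.36 with shMed1 #4 (SE 0.0639, interval -0.49 to -0.23). Between the hairpins it was 0.02 (SE 0.0661, interval -0.11 to 0.15).

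Mest (ENSMUSG00000051855.15, plus strand of chromosome 6, 30723547 to 30748465) encodes a protein of the alpha/beta hydrolase fold and was low in every group. It had 17, 25 and 23 counts in NTC, 18, 14 and 17 with shMed1 #2, and 19, 11 and 18 with shMed1 #4. The means were 2.58 CPM (SD 0.482), 1.88 CPM (SD 0.231) and 1.87 CPM (SD 0.480), each with n = 3, and the groups overlapped. The log2 fold change was -0.45 with shMed1 #2 (SE 0.299, interval -1.04 to 0.14) and -0.45 with shMed1 #4 (SE 0.300, interval -1.05 to 0.14). Between the hairpins it was -0.004 (SE 0.319, interval -0.64 to 0.63), and a difference within that interval was not detectable at this depth. Of its exonic bases 23.1% are shared with Copg2, on the opposite strand, which had up to 567 counts in a library. No source used here gives the strand setting of the counting, so reads of the shared part cannot be told apart. The microRNA gene Mir335 within Mest had 0 counts.

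The 5 remaining genes gave no level. Plagl1 (ENSMUSG00000019817.18, chromosome 10, 13060504 to 13131694), which encodes a zinc finger transcription factor, had 1 count in NTC replicate 1. H19 (ENSMUSG00000000031.16, chromosome 7, 142575529 to 142578143), a long noncoding RNA, had 1 count in NTC replicate 3. Igf2 (ENSMUSG00000048583.16, chromosome 7, 142650766 to 142666816), which encodes insulin-like growth factor 2, Grb10 (ENSMUSG00000020176.17, chromosome 11, 11930508 to 12038683), an adaptor of insulin and IGF1 receptors, and Cdkn1c (ENSMUSG00000037664.13, chromosome 7, 143458339 to 143461050), an inhibitor of cyclin-dependent kinases, had 0. Taking 3 counts of the total as the limit, a count of 0 in all 9 libraries together allows up to 0.039 CPM, and over the 3 libraries of a group up to 0.121, 0.113 and 0.117 CPM in NTC, shMed1 #2 and shMed1 #4. For Igf2 that limit covers only part of the gene, because 62.8% of its exonic bases are also exons of Gm49394 on the same strand, and reads that fit both genes may have been left out. Gm49394 had 6 counts in all. Of the exonic bases of Cdkn1c 30.7% are shared with the antisense gene Gm44732, which had 0 counts.

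Per length of exon the order of the genes changed between groups at 1 place. In NTC the mean level was 14.3 CPM per kb for Impact, 4.00 for Igf2r, 0.654 for Mest, 0.294 for Peg3 and 0.0111 for Usp29. With shMed1 #2 the order was the same, at 11.0, 2.62, 0.478, 0.0753 and 0.00426 CPM per kb. With shMed1 #4 Peg3 stood at 0.734 CPM per kb (range 0.655 to 0.867) and Mest at 0.475 (0.336 to 0.560), so Peg3 was above Mest in that group only. In NTC the ranges were 0.264 to 0.348 CPM per kb for Peg3 and 0.522 to 0.764 for Mest, and with shMed1 #2 they were 0.0259 to 0.148 and 0.412 to 0.525. No neighbours in the order overlapped in any group. Peg3 stayed a low transcript throughout: 1.85% of tested genes had its level per kb or less in NTC, 0.419% with shMed1 #2 and 8.40% with shMed1 #4. Impact exceeded the median tested gene, at 7.08 CPM per kb in NTC, and Igf2r did not.

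Of the 10 genes, 3 of the 4 tested were called lower and 0 higher with shMed1 #2, and 2 lower and 1 higher with shMed1 #4, beside the 43.7% and 28.2% of all genes given above. Between the hairpins 1 was called higher and 1 lower with shMed1 #4, beside 26.0% of all genes (12.9% higher, 13.1% lower). Without replicate 2 of shMed1 #2, or without replicate 1 of shMed1 #4, only 1 was called there. Since these contrasts informed the choice of the genes, nothing is read from the counts.

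Imprinted genes outside the 10 moved in both directions. Their list too was chosen with earlier results of these libraries known, so its counts and the p-values of its genes are a description. Of 64 other imprinted genes named, 63 had a line in the files, 26 had more than 3 counts in a library, 22 were at 0 in all 9 libraries and 22 were tested. With shMed1 #2, 4 were higher and 6 lower (45.5% called, near the 43.7% of all genes, and a median log2 fold change of 0.04 beside -0.003). With shMed1 #4, 1 was higher and 4 lower (22.7% called beside 28.2%, median -0.01 beside 0.001). Between the hairpins 3 were higher and 5 lower with shMed1 #4 (36.4% called beside 26.0%, median -0.05 beside 0.008). Without NTC replicate 1, without NTC replicate 3 or without shMed1 #4 replicate 1, the count with shMed1 #4 against NTC was 3, 3 and 2. Without shMed1 #2 replicate 2 the count between the hairpins was 5.

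Mkrn3 and Ampd3 were lower and Nap1l4 was higher with both hairpins. The shares of all tested genes lower with both, or higher with both, were not computed. Mkrn3, which encodes a ubiquitin ligase and is expressed from the paternal chromosome, stood at 4.97, 4.10 and 4.52 CPM in NTC, 2.53, 1.63 and 2.19 CPM with shMed1 #2 and 2.56, 1.93 and 2.78 CPM with shMed1 #4. It fell by 1.09 on the log2 scale with shMed1 #2 (SE 0.253, adjusted p = 0.00022) and by 0.90 with shMed1 #4 (SE 0.247, adjusted p = 0.00328), and no hairpin library reached the NTC range. Ampd3, which encodes an AMP deaminase, stood at 66.3, 66.4 and 68.1 CPM in NTC, 56.1, 52.2 and 56.2 CPM with shMed1 #2 and 41.4, 35.4 and 46.1 CPM with shMed1 #4. With shMed1 #2 its log2 fold change was -0.29 (SE 0.068, adjusted p = 0.000295), and with shMed1 #4 it was -0.71 (SE 0.0714, adjusted p = 1.38e-13). Ampd3 also differed between the hairpins, by -0.42 (SE 0.0732, adjusted p = 3.5e-06). Nap1l4, a nucleosome assembly protein, rose by 0.29 (SE 0.0530, adjusted p = 5.35e-06) and 0.14 (SE 0.0537, adjusted p = 0.0471), and 11 of 18 alternatives ended its call with shMed1 #4 (adjusted p from 0.00488 to 0.335).

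Cd81, Copg2, Sfmbt2 and Gab1 were called between the hairpins with fold changes of opposite sign against the shared NTC libraries. Their differences between the hairpins were 0.34 or less. The share of all tested genes with that pattern was not computed, so nothing is read from its occurrence here. Cd81, a tetraspanin of the cell surface, was at -0.14 with shMed1 #2 (adjusted p = 0.0239) and 0.10 with shMed1 #4 (adjusted p = 0.134), and differed by 0.24 between them (SE 0.0519, adjusted p = 0.000155). Copg2, a subunit of the COPI vesicle coat, was at -0.18 (adjusted p = 0.032) and 0.05 (adjusted p = 0.623), with 0.23 between them (SE 0.0692, adjusted p = 0.0083). Sfmbt2, a Polycomb group protein, lay the other way, at 0.11 (adjusted p = 0.339) and -0.23 (adjusted p = 0.0699), with -0.34 between them (SE 0.0946, adjusted p = 0.00415). Gab1, an adaptor of receptor tyrosine kinases, was at 0.05 (adjusted p = 0.655) and -0.24 (adjusted p = 0.0159), with -0.28 between them (SE 0.0778, adjusted p = 0.00339). The calls of Copg2 and Gab1 between the hairpins were lost without shMed1 #2 replicate 2, at 0.18 and -0.22. The calls against NTC were lost in 5 of 18 alternatives for Cd81 with shMed1 #2 (adjusted p up to 0.159), 4 for Copg2 with shMed1 #2 (up to 0.395) and 3 for Gab1 with shMed1 #4 (up to 0.113). The opposite signs did not hold for Copg2 without NTC replicate 1 (-0.006 with shMed1 #4), or for Gab1 with library size scaling alone (-0.002 with shMed1 #2) and without shMed1 #2 replicate 2 (-0.017). Gnas, which encodes the stimulatory G protein alpha subunit and had the highest level per exon length of the list, was at 0.02 (adjusted p = 0.718) and -0.004 (adjusted p = 0.953) and crossed 0 under library size scaling alone. Cobl, an actin nucleator picked after its values were seen, had 2, 2 and 5 counts in NTC, 24, 21 and 25 with shMed1 #2 and 7, 5 and 4 with shMed1 #4. It passed the filter on low counts through the shMed1 #2 libraries, where it was high, so its values are given as a description. It is 1 of the 4 counted as higher with shMed1 #2 and 1 of the 5 counted as lower between the hairpins.

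**Figure D4:**
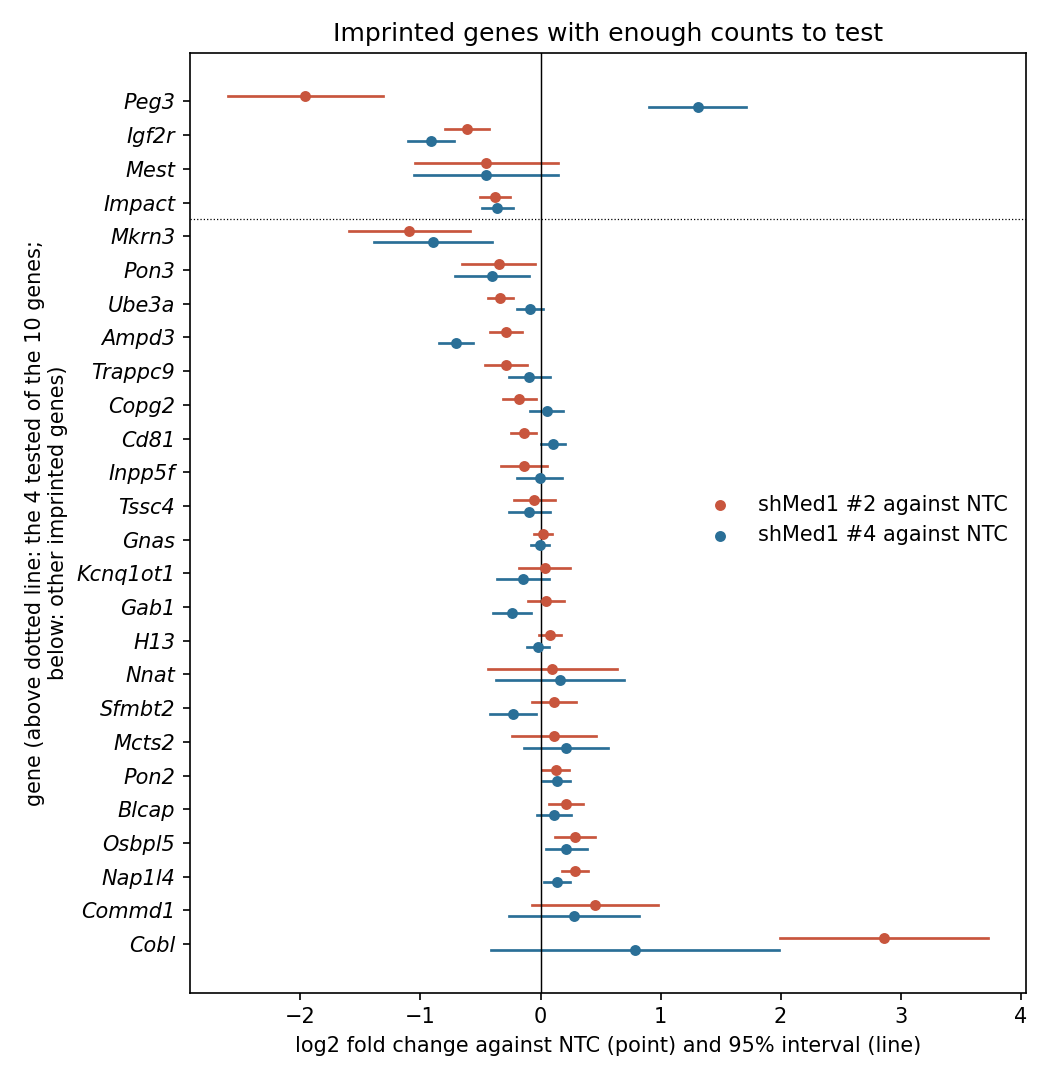
Log2 fold change against NTC (horizontal axis) with its 95% interval for the 4 tested of the 10 genes (above the dotted line) and the 22 other imprinted genes tested (below it). Red is shMed1 #2 and blue is shMed1 #4. Peg3 has red and blue points far apart on both sides of 0, at -1.96 and 1.31.

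Genes of the insulin-like growth factor axis, the pathway that Igf2, Igf2r and Grb10 act in, were more often called lower than higher against NTC. The list was chosen with earlier results of these libraries known, so its counts and the p-values of its genes are a description. Of 22 named, 13 were tested. Igf1r, Insr, Igfbp4, Igfbp6, Igfbp7 and Pik3r1 were lower with both hairpins, and the share of all genes lower with both was not computed. Of all tested genes 21.9% were lower with shMed1 #2 and 14.1% with shMed1 #4. With shMed1 #2, 3 were higher and 7 lower (76.9% called, beside 43.7% of all genes, median log2 fold change -0.21). With shMed1 #4, 0 were higher and 7 lower (53.8% called, beside 28.2%, median -0.24), and between the hairpins 3 were higher and 3 lower (46.2% called, beside 26.0%, median -0.02). The binding protein gene Igfbp6, whose product prefers IGF2, stood at 18.3, 16.3 and 17.8 CPM in NTC, 5.29, 4.18 and 5.65 CPM with shMed1 #2 and 7.56, 7.34 and 8.69 CPM with shMed1 #4. It fell by 1.79 (SE 0.149, adjusted p = 6.87e-18) and by 1.15 (SE 0.137, adjusted p = 6.88e-11) on the log2 scale. Igfbp7, which encodes a related secreted protein, fell by 1.61 (SE 0.227, adjusted p = 4.93e-09) and by 1.31 (SE 0.218, adjusted p = 9.15e-07). Igfbp4, another binding protein gene, had means of 862, 517 and 583 CPM in NTC, shMed1 #2 and shMed1 #4, with log2 fold changes of -0.74 (SE 0.0417, adjusted p = 3.29e-26) and -0.56 (SE 0.0415, adjusted p = 1.45e-19). Pik3r1, the regulatory subunit of PI3-kinase, was lower by -0.67 (SE 0.0638, adjusted p = 4.14e-15) and -0.76 (SE 0.0647, adjusted p = 4.65e-17).

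Genes that maintain imprints or read the methylated copy moved in both directions. As with the other lists, earlier results of these libraries were known when they were chosen, so their counts and p-values are a description. Of 30 named, 26 were tested. With shMed1 #2, 8 were higher and 5 lower (50% called beside 43.7% of all genes, median -0.02), with shMed1 #4, 6 were higher and 3 lower (34.6% called beside 28.2%, median 0.01), and between the hairpins 4 were higher and 2 lower (23.1% called beside 26.0%, median -0.02). Zfp57, the zinc finger protein that binds methylated control regions, stood at 61.5, 64.8 and 56.3 CPM in NTC, 53.0, 49.6 and 54.1 CPM with shMed1 #2 and 46.4, 50.7 and 48.9 CPM with shMed1 #4. It was lower by -0.22 (SE 0.0677, adjusted p = 0.00539) and -0.32 (SE 0.0687, adjusted p = 0.000119), and without NTC replicate 2 the first value was -0.17 with an adjusted p of 0.0672. Ehmt2, a histone H3 methyltransferase also called G9a, was lower by -0.45 (SE 0.0458, adjusted p = 6.56e-14) and -0.28 (SE 0.0454, adjusted p = 4.31e-07). Hells, a chromatin remodeller needed for DNA methylation, rose by 0.48 (SE 0.0470, adjusted p = 3.95e-14) and 0.31 (SE 0.0475, adjusted p = 1.4e-07). Ezh2, the methyltransferase of Polycomb repressive complex 2, rose by 0.25 (SE 0.0558, adjusted p = 0.000139) and 0.29 (SE 0.0558, adjusted p = 2.24e-05).

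The genes whose pattern over the 9 libraries was most like that of Peg3 were not in the list of other imprinted genes. Peg3 and the genes chosen with it were left out of this search, so their absence was fixed beforehand. Likeness was the root mean square distance between log2 CPM values, each gene centred on its mean, among 12422 genes. Car12, a carbonic anhydrase of the cell surface, was nearest (distance 0.618, Pearson r 0.965). Its level was 5.09, 5.18 and 5.21 CPM in NTC, 1.03, 2.21 and 1.96 CPM with shMed1 #2 and 7.10, 8.06 and 6.03 CPM with shMed1 #4. Cpt1c, a carnitine palmitoyltransferase of the brain, followed (distance 0.683, r 0.892), then Cacng2, the AMPA receptor subunit stargazin (0.716, r 0.911), Cadm4, a cell adhesion molecule (0.737, r 0.910), and Flywch2 (0.742, r 0.919). The means of Cacng2 were 11.1, 5.58 and 24.9 CPM in NTC, shMed1 #2 and shMed1 #4, the one of the 5 with a rise above NTC near that of Peg3, while Cpt1c, at 3.70, 0.732 and 3.99 CPM, and Flywch2, at 3.05, 0.848 and 3.17 CPM, had similar means in NTC and shMed1 #4. The 9 points share libraries and groups, so these correlations describe the pattern only. By Pearson's r alone the 5 genes were Tmem205, Car12, Ccnb2, Fkbp5 and Arpc2, with 1 of 5 in common.

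**Figure D5:**
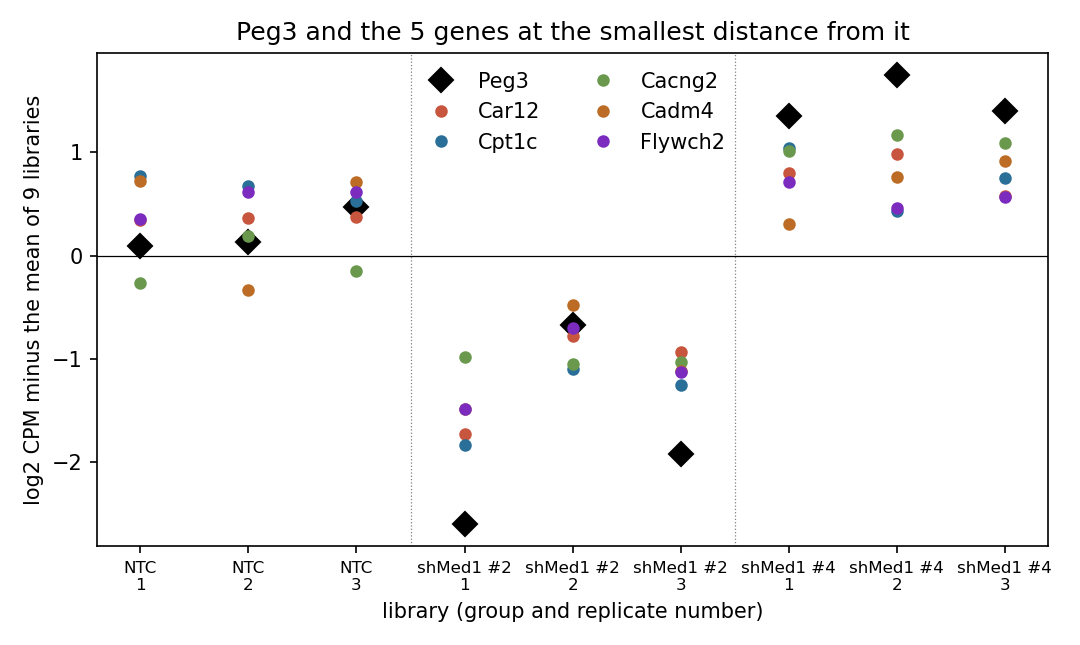
Log2 CPM minus the gene's mean over the 9 libraries (vertical axis) for Peg3 (black diamonds) and its 5 nearest genes (coloured points) in each library (horizontal axis). All 6 genes are below their mean in the 3 libraries of shMed1 #2 and above it in those of shMed1 #4, and Peg3 has the widest range.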

How the data were processed

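RNA of 9 samples, 3 per group, was extracted with a DNase step and sequenced on a BGISEQ-500 instrument, per the labels. The authors deposited raw counts per gene, 1 file per sample. Per the submitters' processing notes, STAR and HTSeq were used with the build GRCm38 (mm10). Neither versions nor the strand setting nor the annotation release is given in the sources used here. A file holds 55335 genes, and 0 lines lack a gene name. Symbols, positions and exon lengths come from GENCODE on GRCm38, where 54587 identifiers matched in full and 55154 after the version was dropped.

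Genes were kept by filterByExpr, which left 13611, and scaled by TMM (factors 0.982 to 1.02). The quasi-likelihood test of edgeR 4.0.16 (robust, in R 4.3.3) was fitted over all 9 samples with the group as the only term, and a gene was called at a Benjamini-Hochberg adjusted p under 0.05. The common biological coefficient of variation was 3.68%. Between replicates the chi-square per degree of freedom was 1.55 to 2.53, above sampling noise, and each was counted as a sample. Reads have no molecular identifiers, so the Poisson intervals and limits hold counting error alone. Distances use log2 CPM with a prior count of 2 and genes whose mean log2 CPM was 1 or more. The members were left out of the search for genes with a pattern like that of Peg3. Scripts were tested on 1 simulated data set per comparison. There 94%, 88% and 92% of 50 genes changed 2-fold were recovered for shMed1 #2, for shMed1 #4 and between the hairpins. Of the calls in these simulations 9.58%, 8.18% and 5% were false in the same order.

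The members and all lists were chosen with earlier results of these data known, so p-values printed for genes of the lists are a description. Named genes are the 10 members; of the other imprinted genes those called with both hairpins in 1 direction, those called between the hairpins with opposite signs against NTC, and the 3 highest per exon length; up to 4 of each pathway list; and the 5 genes nearest to Peg3. Alternatives were RLE, upper quartile and library size scaling, other filters on low counts, DESeq2 1.42.0, no robust option, a block for the replicate number, only the groups compared, and each library left out. Figures were drawn with matplotlib 3.10.9.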

Additional observations from a re-analysis of the deposited data

Results flagged for a closer look

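Peg3 had values on opposite sides of NTC with the 2 hairpins: every library of shMed1 #2 was below, and every library of shMed1 #4 above, all 3 NTC libraries. The log2 difference between the hairpins was 3.27. It is among the differences that the fit calls, but the gene was chosen with these values known, so it is given as a description, and on libraries not used for that choice it was not tested.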

How the results depend on the processing

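Of 1490 log2 fold changes of single genes recomputed under the alternatives, 41 lost a call, 2 gained one and 21 changed sign, 7 of them in the 10 genes (Mest and Impact between the hairpins) and 14 in others. As a description, the value of Peg3 ranged over 18 alternatives from -2.89 to -1.55 with shMed1 #2, 1.17 to 1.45 with shMed1 #4 and 2.86 to 4.20 between the hairpins. Between the hairpins Mest ranged from -0.139 to 0.186 over 17 alternatives and Impact from -0.042 to 0.065 over 18. The number of other imprinted genes called with shMed1 #4 against NTC, 5 in the report, was 3 with no filter, 3 with a stricter filter (50 counts in 3 libraries) and 2 in DESeq2, and the number of the 10 genes called between the hairpins was 1 in DESeq2. With 1 library left out, the 10 genes gave 3 to 3, 3 to 3 and 1 to 2 calls for shMed1 #2, for shMed1 #4 and between the hairpins, and the other imprinted genes gave 7 to 10, 2 to 6 and 5 to 8. The replicate block, with the replicate number as a term, gave 3, 3 and 2 calls among the 10 genes and 10, 5 and 8 among the others, as without it. Same-numbered libraries did not deviate together (correlations from -0.0589 to 0.0662, beside -0.126 to 0.136 for different numbers). That does not exclude that they were handled together, which the labels do not say. All genes called ranged over the alternatives from 4903 to 6138, 2815 to 3878 and 2524 to 3566. All 21 sign changes were in differences that had not passed the threshold. With shMed1 #2 against NTC, Gnas was at -0.011 with upper quartile scaling and -0.029 with library size alone, and Gab1 at -0.002 with library size alone. With 1 library left out, Gnas ranged from -0.002 to 0.048 and Gab1 from -0.017 to 0.087 with shMed1 #2. With shMed1 #4 the ranges were -0.006 to 0.141 for Copg2, -0.059 to 0.256 for Cpt1c, -0.035 to 0.425 for Cadm4, -0.034 to 0.115 for Flywch2 and -0.035 to 0.023 for Gnas, and between the hairpins -0.026 to 0.093 for Ezh2. The cause was not tested. With a limit of 1 count 7 of the 10 genes were detected, and with 10 counts 4. No difference is given for genes at 0 or 1 count.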

Other observations

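Igf2bp1, an RNA-binding protein of Igf2 mRNA picked after its values were seen, was higher with shMed1 #2 (log2 fold change 0.22, SE 0.0775, edgeR adjusted p = 0.0161) and lower with shMed1 #4 (-0.30, SE 0.0824, adjusted p = 0.00303), and differed by -0.52 between the hairpins (SE 0.0801, adjusted p = 1.84e-07). Its level was 39.2, 43.4 and 35.5 CPM in NTC, 49.5, 44.8 and 43.0 CPM with shMed1 #2 and 31.4, 31.9 and 32.5 CPM with shMed1 #4, so the 2 hairpins did not overlap. The call with shMed1 #2 was lost with library size scaling alone, in DESeq2, without NTC replicate 3 and without shMed1 #2 replicate 1 (0.17, 0.22, 0.15 and 0.16), and that with shMed1 #4 without NTC replicate 2 (-0.23).

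Trim28, the co-repressor that ZFP57 recruits, and Dnmt1, the maintenance DNA methyltransferase, both picked after their values were seen, were lower with shMed1 #2 and not called with shMed1 #4. Trim28 stood at 343, 374 and 355 CPM in NTC, 295, 299 and 294 CPM with shMed1 #2 and 365, 351 and 364 CPM with shMed1 #4, a difference between the hairpins of 0.28 (SE 0.0421, edgeR adjusted p = 9.49e-08). Dnmt1 stood at 284, 284 and 271 CPM, 253, 245 and 243 CPM, and 274, 285 and 296 CPM in the same order, a difference of 0.21 (SE 0.0432, adjusted p = 9.99e-05). The part of these genes in the level of Peg3 was not tested.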
